A study of Mus musculus with 80 samples.

Results

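The genes described here are receptors, adaptors and integrins through which phagocytes of the brain recognise and take up material: Tyrobp, Trem2, Fcer1g, Fcgr3, Fcgr2b, Axl, Mertk, Itgam, Itgax and Itgb2. They were chosen by gene symbol. Of the 10 genes, 9 had an annotated probe that was detected at a detection p-value under 0.05 on at least 4 of the 80 arrays, out of 11381 genes with such a probe. Itgax, the alpha chain of complement receptor 4, has no annotated probe here and gets no value. The 9 genes have 11 probes on the array and 10 were kept. Fcgr2b has a brighter leading probe and a second, dimmer one, and another probe was detected on 1 array and was left out.

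The study measured hippocampal RNA in a mouse model of mesial temporal lobe epilepsy on Illumina bead arrays. Male C57Bl/6J mice aged 12 weeks received 50 nl of 20 mM kainic acid, an agonist of glutamate receptors, in saline into the right dorsal hippocampus, and sham animals received saline alone. The injected side (IL) and the other side (CL) of each of 40 animals were measured at day 7, 28 or 60 after surgery. The KA groups held 8, 9 and 9 animals at these days and the sham groups held 4, 5 and 5, with 1 IL and 1 CL array from each animal. Sham animals had the same surgery, so both groups carry an injection on the IL side. RNA came from hippocampus tissue, in which more cells of a type and more RNA per cell cannot be told apart. Values are the authors' deposited log2 values, which have nearly the same distribution on every array. Differences are KA minus sham on that scale with their standard errors, and adjusted p-values are from limma with Benjamini-Hochberg adjustment over all 16646 probes tested, with 0.05 as the threshold.

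Microglia, the resident phagocytes of the brain, sense lipids, apolipoproteins and cell debris through TREM2, which has no signalling tail and transmits through the adaptor TYROBP (DAP12). FCER1G, the common Fc receptor gamma chain, is a related adaptor, with which the IgG receptor FCGR3 signals. Both adaptors carry an ITAM, a motif whose phosphorylated tyrosines recruit the kinase SYK. FCGR2B is the inhibitory IgG receptor, with an ITIM in place of an ITAM. AXL and MERTK are receptor tyrosine kinases of the TAM family, which bind apoptotic cells through the bridging proteins GAS6 and PROS1. ITGAM and ITGAX pair with ITGB2 to form complement receptors 3 and 4.

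Sequence of the 250 bases before the start site is given for the members that rose on both sides at day 7 and are listed in the RefSeq promoter table (build GRCm38.p6). Fcer1g, Fcgr3 and Fcgr2b lie in one stretch of chromosome 1. The letters GAGGAA, the core that the myeloid factor PU.1 is known to bind, are in capitals and read TTCCTC where they lie on the opposite strand. Each line runs 5′ to 3′ on the strand of the gene.
Trem2, chr17:48346151-48346400, plus strand: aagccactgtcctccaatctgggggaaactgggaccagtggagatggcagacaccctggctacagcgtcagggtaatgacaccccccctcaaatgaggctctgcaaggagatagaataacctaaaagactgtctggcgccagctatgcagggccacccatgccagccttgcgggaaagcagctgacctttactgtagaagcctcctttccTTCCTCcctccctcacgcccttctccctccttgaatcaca
Fcer1g, chr1:171234350-171234599, minus strand: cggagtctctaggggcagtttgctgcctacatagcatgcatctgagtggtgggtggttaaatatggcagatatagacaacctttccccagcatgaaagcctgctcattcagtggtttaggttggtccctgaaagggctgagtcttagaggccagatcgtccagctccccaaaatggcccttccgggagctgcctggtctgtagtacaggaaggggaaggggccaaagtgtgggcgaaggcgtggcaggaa
Fcgr3, chr1:171059404-171059653, minus strand: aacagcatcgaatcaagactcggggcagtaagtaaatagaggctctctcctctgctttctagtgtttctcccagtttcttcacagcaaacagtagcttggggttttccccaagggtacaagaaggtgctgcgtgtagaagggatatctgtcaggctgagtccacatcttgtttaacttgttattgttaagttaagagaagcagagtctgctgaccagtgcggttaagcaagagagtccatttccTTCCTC
Fcgr2b, chr1:170976072-170976321, minus strand: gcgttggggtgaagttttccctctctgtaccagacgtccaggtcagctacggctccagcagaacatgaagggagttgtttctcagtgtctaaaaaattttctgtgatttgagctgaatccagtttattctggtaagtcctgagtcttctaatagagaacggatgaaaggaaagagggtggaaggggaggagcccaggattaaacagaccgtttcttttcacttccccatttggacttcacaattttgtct
Trem2 held GAGGAA once, starting 40 bases before the start site, and Fcgr3 held it once, in the last 6 bases before it in the window shown. Fcer1g and Fcgr2b did not hold these letters in this window. Of the other members in the table (Tyrobp and Itgb2 are not listed), Axl held it once and Itgam held it 2 times, while Mertk and Itgax did not. On either strand, 23.3% of all 32851 windows of this length held GAGGAA. The AP-1 letters TGANTCA, found in 6.75% of windows, were present in Trem2 and Itgax. The E-box CACGTG, found in 6.02% of windows, was in none of the members' windows. None of these motifs overlapped another in the members' windows. A match describes the letters only.

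In KA animals the adaptors, TREM2 and the Fc receptors were higher than in sham animals on both sides at day 7. On the injected side they were still higher at day 28 and closer to the sham level at day 60. On the IL side at day 7, 8 of the 9 genes rose and 0 fell, against 6.7% of all probes called higher (3.39% called lower). At day 28, 5 rose and 0 fell, against 3.8% of all probes called higher (1.07% called lower). At day 60, 3 rose and 0 fell, against 2.67% (1.2% called lower). On the CL side 5 rose and 0 fell at day 7, against 1.12% (0.018% called lower). With the CL day 7 groups fitted alone this count was 2 (Fcgr3 and Fcgr2b), and Fcer1g (adjusted p = 0.0505), Trem2 (adjusted p = 0.0874) and Tyrobp (adjusted p = 0.0932) lost their calls. Calls fell over all 16646 probes too, with 25 higher and 2 lower in that fit, beside 187 and 3 with all groups. With all groups fitted together, limma called 0 of the 9 genes on the CL side at day 28 and 0 at day 60. At an unadjusted p under 0.05 there were 2 genes at day 28 and 0 at day 60. Of all probes, 0.0541% were called higher and 0.0601% lower at day 28, and 0.0481% higher and 0.0% lower at day 60. Those 2 genes at CL day 28 were Fcgr3, which was higher (0.53), and Itgam, which was lower (-0.29). Itgam was detected there on 0 of 9 KA and 0 of 5 sham arrays, so its value lies at background. The median difference over the 9 genes was 1.88, 1.29 and 0.63 on the IL side at days 7, 28 and 60, beside -0.05, -0.02 and -0.02 over all probes tested. It was 1.33, 0.23 and 0.13 on the CL side, beside -0.02, -0.01 and 0.01 over all probes. Itgam passed the filter on low values mainly through the group in which it was high, with 6 of its 8 detected arrays in IL KA day 7, so its place in the count of 8 follows in part from the filter.

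**Figure D1:**
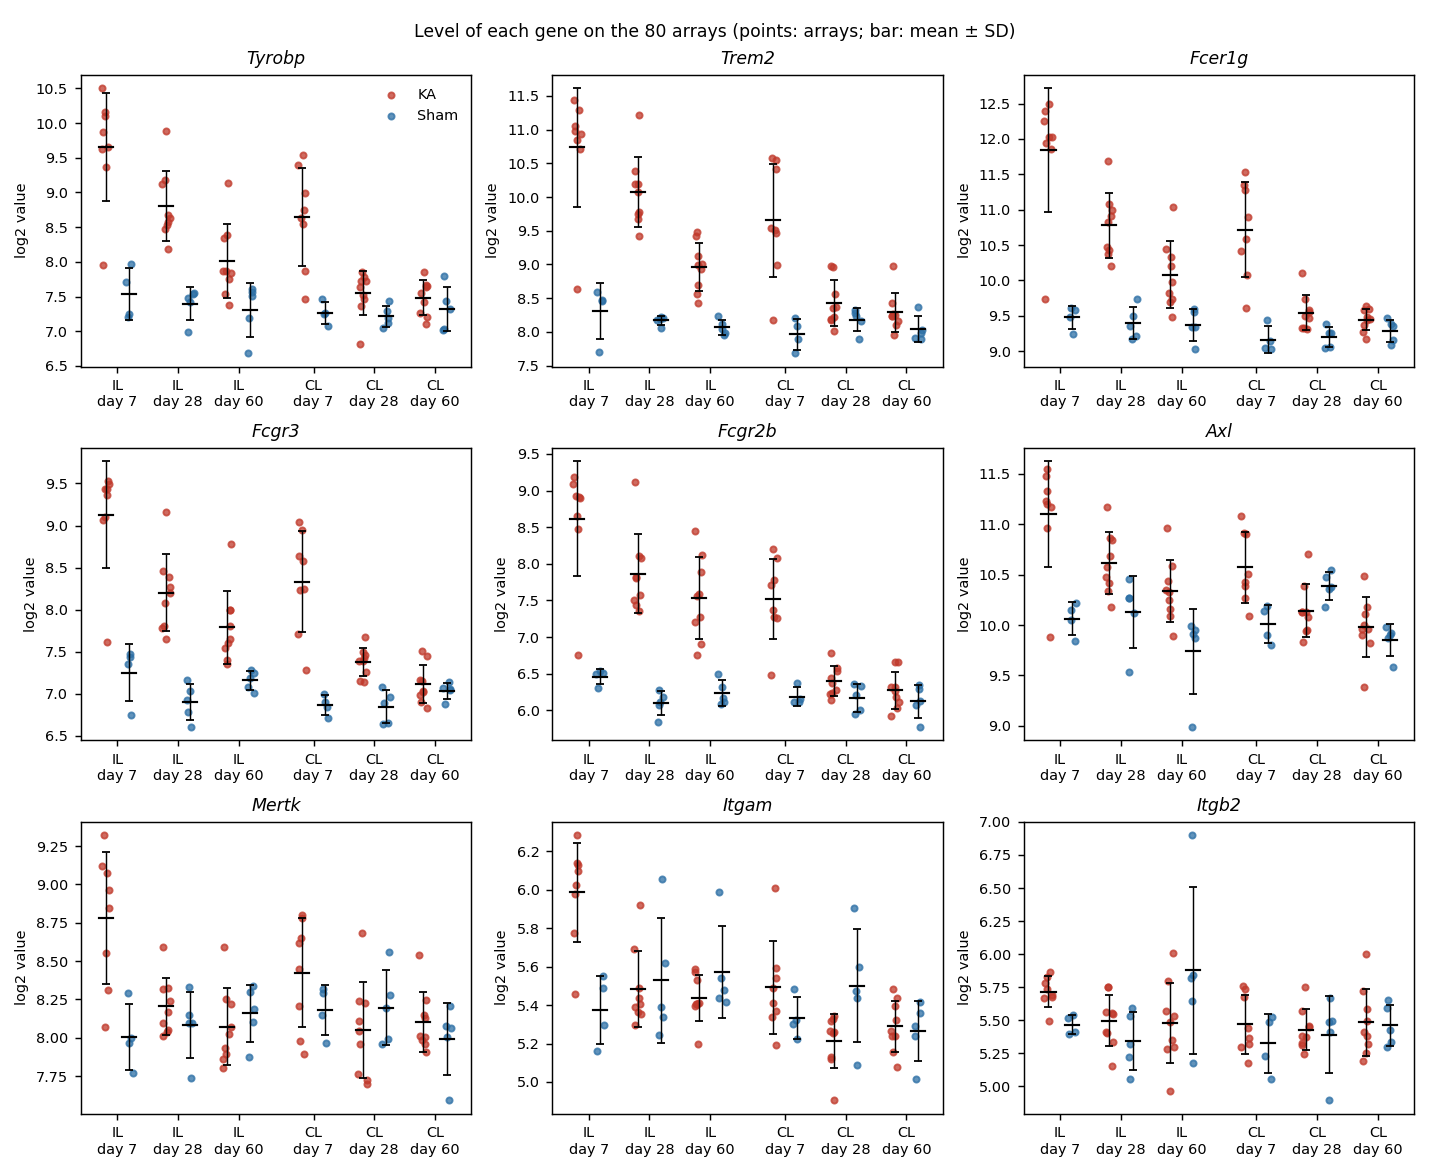
Level of each gene on each of the 80 arrays, as log2 value (vertical axis, a separate scale for each gene), by side and day, with KA in red to the left of sham in blue. Bars are means ± SD of 8, 9 and 9 KA arrays and 4, 5 and 5 sham arrays at days 7, 28 and 60. Tyrobp, Trem2, Fcer1g, Fcgr3 and Fcgr2b show the highest KA points at IL day 7, with 1 low KA array in each panel; Itgam and Itgb2 lie near the background level.

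Trem2, the lipid-sensing receptor, ranged between 8.63 and 11.44 with a median of 10.96 on the 8 IL KA arrays at day 7, against 8.48, 8.60, 8.46 and 7.70 on the sham arrays. All 8 KA arrays lay above all 4 sham arrays, 7 of them by a wide margin and 1, at 8.63, by little. The difference was 2.43 ± 0.29, or 5.39-fold (adjusted p = 1.59e-09). At IL day 28 the KA arrays ranged between 9.43 and 11.21 with a median of 10.08, against 8.06, 8.21, 8.19, 8.17 and 8.23 in sham, a difference of 1.91 ± 0.26 (adjusted p = 2.48e-07). At IL day 60 they ranged between 8.42 and 9.48 with a median of 9.00, against 8.24, 8.04, 7.99, 8.12 and 7.96 in sham. The groups did not overlap at either day. The day 60 difference of 0.89 ± 0.26 passed the test (adjusted p = 0.0332), but not without any 1 of KA replicates 1, 6 and 7 or sham replicates 3, 4 and 5 (adjusted p up to 0.11), nor without slides 4 and 9 (0.80, adjusted p = 0.14). On the CL side at day 7 the KA arrays ranged between 8.17 and 10.58 with a median of 9.53, against 8.21, 8.09, 7.68 and 7.89 in sham. Here 7 of 8 KA arrays lay above every sham array. The difference was 1.69 ± 0.29, or 3.22-fold (adjusted p = 0.000238).

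Tyrobp encodes the adaptor of TREM2. At IL day 7 its KA arrays had values of 7.95 to 10.51 with a median of 9.76, against 7.97, 7.71, 7.21 and 7.25 in sham. The groups overlapped through 1 KA array, the lowest, which lay just under the highest sham array. The difference was 2.12 ± 0.28, or 4.35-fold (adjusted p = 1.65e-08). Tyrobp was higher by 1.41 ± 0.25 at IL day 28 (adjusted p = 8.47e-05), when the KA arrays spanned 8.18 to 9.89 with a median of 8.63, against 7.56, 7.49, 6.99, 7.54 and 7.41 in sham, with no overlap. The IL day 60 difference of 0.70 ± 0.25 did not pass the test (adjusted p = 0.111), and 2 of the 9 KA arrays lay within the sham range. At CL day 7 Tyrobp was higher by 1.39 ± 0.28 (adjusted p = 0.00168) and all 8 KA arrays, at 7.47 to 9.54, lay above the sham arrays at 7.08, 7.25, 7.26 and 7.46.

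Fcer1g encodes the gamma chain shared by activating Fc receptors. Its IL KA arrays at day 7 ranged between 9.74 and 12.50 with a median of 12.03, against 9.61, 9.58, 9.48 and 9.24 in sham. Every KA array was above every sham array, and the difference was 2.36 ± 0.26, or 5.15-fold (adjusted p = 7.58e-10). At IL day 28 the KA arrays spanned 10.20 to 11.69, against 9.36, 9.17, 9.22, 9.50 and 9.74 in sham, a difference of 1.38 ± 0.24 (adjusted p = 4.26e-05) with no overlap. By IL day 60 it was 0.71 ± 0.24, which did not pass the test (adjusted p = 0.0774), and 1 of the 9 KA arrays lay within the sham range. At CL day 7 Fcer1g was higher by 1.56 ± 0.26 (adjusted p = 0.000238); the KA arrays, at 9.62 to 11.53, all lay above the sham arrays, at 9.44, 9.14, 9.04 and 9.03.

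Fcgr3, the low-affinity activating IgG receptor, ranged between 7.61 and 9.53 with a median of 9.39 on the IL KA arrays at day 7, against 7.36, 7.47, 7.43 and 6.74 in sham. Its groups did not overlap and differed by 1.88 ± 0.23, or 3.67-fold (adjusted p = 2.46e-09). The difference was 1.29 ± 0.21 at IL day 28 (adjusted p = 8.23e-06), again without overlap. At IL day 60 all 9 KA arrays, at 7.35 to 8.78, lay above the sham arrays at 7.28, 7.08, 7.18, 7.25 and 7.01, but the difference of 0.63 ± 0.21 did not pass the test (adjusted p = 0.0667). At CL day 7 it was 1.47 ± 0.23 (adjusted p = 7e-05) and all 8 KA arrays, at 7.28 to 9.04, lay above the sham arrays at 6.99, 6.90, 6.71 and 6.85. At CL day 28 each of the 9 KA arrays, at 7.14 to 7.68, was above each sham array, at 6.90, 6.64, 6.97, 7.08 and 6.65, with a difference of 0.53 ± 0.21 that did not pass the test (adjusted p = 0.26). For comparison, 0.162% of all probes showed no overlap in that direction at CL day 28.

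Fcgr2b, the inhibitory IgG receptor, was called higher at each of the 3 days on the IL side. At IL day 7 its leading probe ranged between 6.76 and 9.19 with a median of 8.90 in KA, against 6.50, 6.50, 6.53 and 6.30 in sham. There was no overlap and the difference was 2.15 ± 0.25, or 4.45-fold (adjusted p = 1.64e-09). At IL day 28 the KA arrays, at 7.35 to 9.12 with a median of 7.80, were all above the sham arrays at 6.19, 6.07, 6.11, 5.85 and 6.28. The difference was 1.77 ± 0.23 (adjusted p = 8.63e-08). At IL day 60 they were at 6.76 to 8.45 with a median of 7.56, against 6.31, 6.08, 6.17, 6.12 and 6.50, again without overlap, and the difference was 1.29 ± 0.23 (adjusted p = 7.79e-05). At CL day 7 Fcgr2b was higher by 1.33 ± 0.25 (adjusted p = 0.000955), with all 8 KA arrays, at 6.49 to 8.20, above the sham arrays at 6.16, 6.37, 6.11 and 6.11. The second probe of Fcgr2b was not well above background on any of the 28 sham arrays. All 26 arrays on which it was detected were KA arrays, so it passed the filter on low values through the group in which it was high, and its values add no independent support to the leading probe. It differed by 1.10 ± 0.16 at IL day 7 (adjusted p = 2.15e-07), at least 1.78-fold, and by 0.73 ± 0.15 at IL day 28 (adjusted p = 0.000418), at least 1.13-fold. It did not pass the test at IL day 60 (0.46 ± 0.15, adjusted p = 0.0542) or CL day 7 (0.57 ± 0.16, adjusted p = 0.0593). At least-folds are computed against the lowest signal of probes detected on each sham array, where the sham arrays give only a bound.

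The share of all probes in which every KA array lay above every sham array was 2.29% at IL day 7, 1.9% at IL day 28, 1.6% at IL day 60 and 1.09% at CL day 7. At these points it held for 4, 5, 3 and 4 of the 9 member genes. It held for 1 member at CL day 28 (Fcgr3) and for 0 at CL day 60, where 0.0901% of all probes showed it. At least 7 of the 8 KA arrays lay above every sham array at IL day 7 in each of the 9 member genes, and in 8.69% of all probes. Of the 9, Itgam and Itgb2 were near background, detected on 6 and 4 of these 8 KA arrays and on 0 of the 4 sham arrays. Itgam passed the filter on low values mainly through this KA group, so its place in this count follows in part from the filter.

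Of the TAM receptors, Axl ranged between 9.88 and 11.55 with a median of 11.21 on the IL KA arrays at day 7, against 10.15, 10.05, 10.22 and 9.84 in sham. Of the KA arrays 7 were above every sham array, and the difference was 1.03 ± 0.19, or 2.05-fold (adjusted p = 5.03e-05). Axl did not pass the test at IL day 28 (0.49 ± 0.18, adjusted p = 0.0937), and passed it at IL day 60, with 0.60 ± 0.18 (adjusted p = 0.0359). At day 60 the KA arrays lay at 9.89 to 10.96 and the sham arrays at 9.91, 9.99, 9.95, 9.88 and 8.99. Without the sham array at 8.99 (replicate 5) the difference was 0.41 and did not pass the test (adjusted p = 0.348), and it also missed the threshold without KA replicate 1, 5 or 7 (0.52 to 0.58). On the CL side at day 7 it was 0.56 ± 0.19 (adjusted p = 0.209).

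Mertk ranged between 8.07 and 9.32 with a median of 8.90 on the IL KA arrays at day 7, against 8.00, 7.77, 8.29 and 7.97 in sham. It was higher by 0.78 ± 0.17, or 1.71-fold (adjusted p = 0.000401), and 7 of 8 KA arrays lay above every sham array. It did not pass the test at IL day 28 (0.12 ± 0.15, with a 95% interval of -0.18 to 0.42) or IL day 60 (-0.09 ± 0.15, -0.39 to 0.21). At CL day 7 its difference was 0.24 ± 0.17, with an interval of -0.09 to 0.57.

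The integrin chains were close to the detection limit. Itgam was detected on 6 of the 8 IL KA arrays at day 7 and on 0 of the 4 sham arrays. The KA arrays there had values of 5.46 to 6.29 with a median of 6.06, against 5.16, 5.49, 5.29 and 5.55 in sham, and 7 of 8 lay above every sham array. Itgam was called higher, by 0.61 ± 0.13 (adjusted p = 0.000301), which is at least 1.12-fold because sham arrays give only a bound. The other 2 arrays on which it was detected were a KA array of IL day 28 and a KA array of CL day 7. Itgb2 was detected on 10 arrays in all, of which 4 were IL KA day 7. Its difference there was 0.25 ± 0.16 (adjusted p = 0.398). On the IL side at day 60 Itgb2 was measured at -0.40 ± 0.15 (adjusted p = 0.114), with 2 of 9 KA arrays and 3 of 5 sham arrays detected and the sham arrays at 5.82, 5.84, 5.17, 5.65 and 6.90. This value rests on single sham arrays: it was -0.58 (adjusted p = 0.0118) without the array at 5.17 (replicate 3) and -0.14 (adjusted p = 0.817) without the array at 6.90 (replicate 5).

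**Figure D2:**
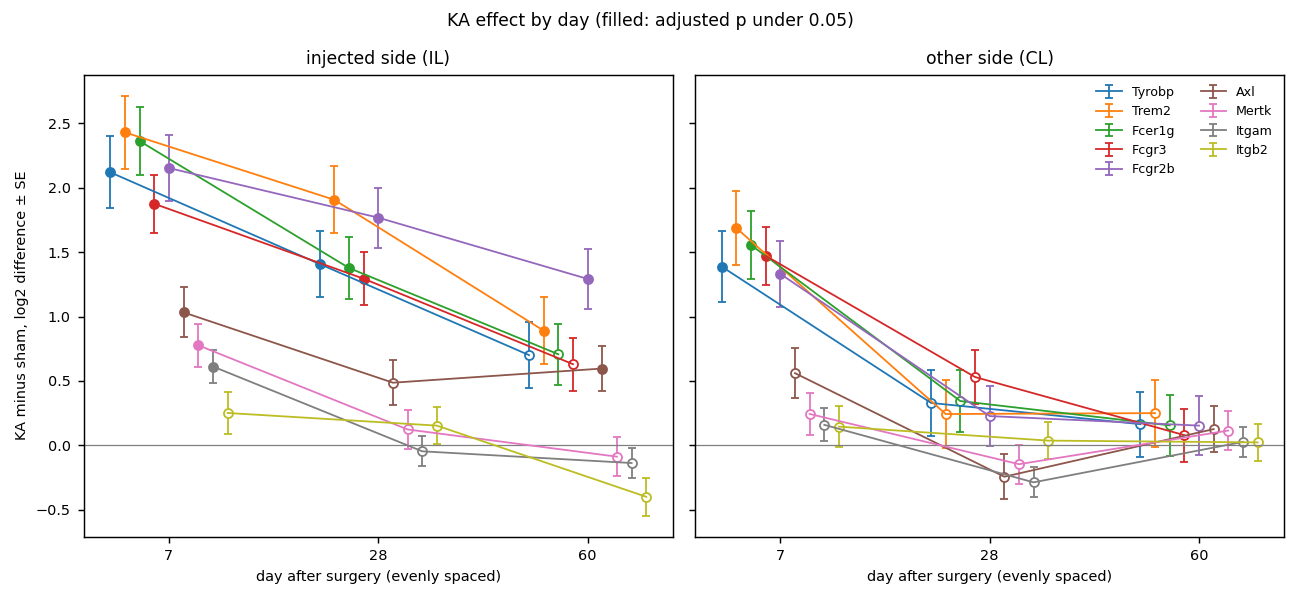
KA minus sham difference in log2 value ± SE (vertical axis) for the 9 genes at days 7, 28 and 60 (horizontal axis, evenly spaced), on the injected side at left and the other side at right. Filled points have an adjusted p under 0.05. The filled points number 8, 5 and 3 on the injected side, and 5 on the other side at day 7 with none later.

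In the order of group means, IL KA day 7 came first for 8 of the 9 genes; the exception was Itgb2, which was highest in IL sham day 60. For Trem2 the order was IL KA day 7 (10.74 ± 0.88, SD, n = 8), IL KA day 28 (10.08 ± 0.52, n = 9), CL KA day 7 (9.65 ± 0.84, n = 8) and IL KA day 60 (8.96 ± 0.36, n = 9). The other 8 groups followed between 8.42 ± 0.34 (CL KA day 28) and 7.97 ± 0.23 (CL sham day 7). From CL KA day 28 down, neighbours in this order differed by less than the larger of their SDs. For Fcgr2b, IL KA day 60 (7.53 ± 0.56, n = 9) and CL KA day 7 (7.52 ± 0.55, n = 8) had nearly the same level, and the next group, IL sham day 7, was at 6.46 ± 0.11 (n = 4).

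Whether the KA effect differed between sides was tested directly, as the IL difference minus the CL difference. At day 7, 0 of the 9 genes passed with limma (4 had an unadjusted p under 0.05; 0.03% of all probes were called). The Trem2 effect was larger on the IL side by 0.74 ± 0.39 there, with an interval of -0.03 to 1.52. At day 28 Trem2 (1.66 ± 0.35, adjusted p = 0.00999) and Fcgr2b (1.54 ± 0.32, adjusted p = 0.00643) had a larger KA effect on the IL side, with 0.739% of all probes called in either direction. Tyrobp (1.08 ± 0.34, adjusted p = 0.108) and Fcer1g (1.03 ± 0.32, adjusted p = 0.102) did not pass. At day 60, 0 passed (2 at an unadjusted p under 0.05; 0.433% of probes called in either direction), with Fcgr2b at 1.14 ± 0.32 (adjusted p = 0.077). Without slides 4 and 9, which had the fewest detected probes, neither day 28 call was kept (Trem2 1.66, adjusted p = 0.0897, and Fcgr2b 1.56, adjusted p = 0.076).

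Within KA animals the IL array was above the CL array of the same animal in 8 of 8 animals at day 7 and 9 of 9 at day 28 for each of Tyrobp, Trem2, Fcer1g, Fcgr3 and Fcgr2b. At day 60 this held in 7, 8, 8, 9 and 9 of 9 animals for these genes in that order. For Mertk it held in 6 of 8, 6 of 9 and 4 of 9 KA animals. In sham animals no member gene passed the test between sides at any of the 3 days, with 0.0%, 0.00601% and 0.0% of all probes called (0, 0 and 2 genes at an unadjusted p under 0.05, those at day 60 being Itgam and Itgb2). Trem2, Fcer1g, Fcgr3 and Fcgr2b were higher on the saline-injected side in 4 of 4 sham animals at day 7. Their differences were 0.34 ± 0.32, 0.32 ± 0.29, 0.39 ± 0.25 and 0.27 ± 0.28. Tyrobp, Axl, Itgam and Itgb2 were higher on that side in 2 of 4 and Mertk in 1 of 4. At day 28 Trem2, Fcer1g, Fcgr3 and Fcgr2b were higher in 2, 3, 3 and 2 of 5 sham animals. The genes share the same animals, so these counts are not independent.

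The change of the KA effect with time was tested the same way. On the IL side from day 7 to day 60, the KA effect was smaller at day 60 for 6 of the 9 genes (with 1.43% of all probes called in either direction): Fcer1g by -1.66 ± 0.35 (adjusted p = 0.00444), Trem2 by -1.54 ± 0.39 (0.0194), Tyrobp by -1.42 ± 0.38 (0.0292), Fcgr3 by -1.25 ± 0.31 (0.0161), and Mertk by -0.87 ± 0.22 (0.024). The remaining gene was Itgam, at -0.75 ± 0.17 (0.00886). It was not well above background on any array of IL sham day 7, IL KA day 60 or IL sham day 60 and passed the filter on low values through KA arrays, so this value compares a measured level with background and is no measured change. Fcgr2b, at -0.86 ± 0.34 (adjusted p = 0.281), and Axl, at -0.44 ± 0.26, did not pass. Without IL sham day 7 replicate 4, 2 of the 9 genes passed, of which Fcer1g is the one measured in all 4 groups; the other was Itgam. The Mertk call was also lost without IL sham day 7 replicate 2 or IL sham day 60 replicate 5. The Tyrobp call was lost without any 1 of 9 arrays, namely IL KA day 7 replicates 1, 6 and 7, IL sham day 7 replicates 3 and 4, IL KA day 60 replicate 4 and IL sham day 60 replicates 1, 3 and 4. From day 7 to day 28 on the IL side, 0 passed (4 at an unadjusted p under 0.05; 0.222% of probes called in either direction), with Itgam nearest at -0.66 ± 0.17 (adjusted p = 0.0677). On the CL side 0 passed at day 28 or day 60 against day 7 (7 and 5 genes at an unadjusted p under 0.05), where 0 of all 16646 probes were called (0.0%). The Trem2 effect on that side was -1.44 ± 0.39 at each of the later days relative to day 7, with adjusted p of 0.181 at day 28 and 0.306 at day 60. These comparisons share the day 7 arrays.

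A single animal weighs on the day 7 values. Its IL array (IL KA day 7 replicate 8) was the lowest of the KA arrays in 9 of the 9 genes, and its CL array (CL KA day 7 replicate 7) was the lowest in 7. On the IL array Trem2 read 8.63, beside 10.72 to 11.44 in the other 7 KA animals, and Fcer1g read 9.74, beside 11.86 to 12.50. The mean of 8 microglia markers was 7.63 on its IL array against 8.03 to 9.16 in the other KA arrays, and the mean of 5 astrocyte markers was 9.80 against 10.82 to 11.18. Neuron markers averaged 11.12, within the other arrays' 10.93 to 11.35, and 62.4% of probes were detected, beside 62.3% to 66.9%. On its CL array the microglia markers averaged 7.23, inside the 7.17 to 8.67 of the other CL KA arrays, and the astrocyte markers 9.72, below their 10.12 to 11.01. Without both arrays of this animal, a choice made after the data were seen, the IL day 7 count stayed at 8 and the Trem2 difference became 2.73 (adjusted p = 2.27e-16). The IL day 60 count became 6 and the CL day 7 count became 6, with Axl added (0.63, adjusted p = 0.0309). Over all 16646 probes, calls of higher values also rose, from 445 to 504 at IL day 60 and from 187 to 319 at CL day 7. The IL day 60 differences hold no array of this animal and did not change. The IL day 60 count moved because the fit shares its estimate of the spread over all groups. The KA effect on the CL side was called smaller at day 28 than at day 7 in 6 genes and smaller at day 60 than at day 7 in 5. Of all 16646 probes, 119 were called lower and 13 higher in the first of these tests, and 67 lower and 0 higher in the second. What set this animal apart was not tested.

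**Figure D3:**
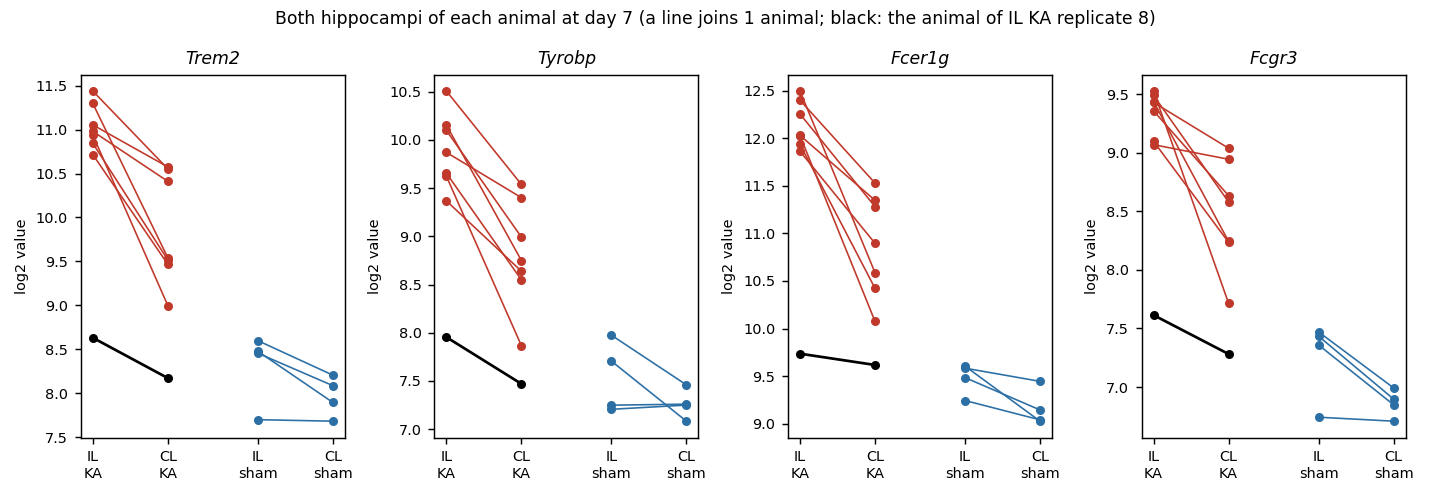
Log2 value of Trem2, Tyrobp, Fcer1g and Fcgr3 (vertical axes) in both hippocampi of the 8 KA animals (red, with 1 animal in black) and 4 sham animals (blue) at day 7; a line joins the IL and CL array of an animal. The black line is the animal of IL KA replicate 8, whose Trem2 values of 8.63 and 8.17 lie near the sham animals, while the other 7 KA animals lie at 10.72 or more on the IL side.

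Other arrays also stood apart. IL KA day 28 replicate 1 was the highest of its group in 9 of the 9 genes (Trem2 11.21, Fcgr2b 9.12), and its microglia markers averaged 8.72, beside 7.79 to 8.16 in the other 8. IL KA day 60 replicate 7 was the highest in 6 of the 9 genes, with microglia markers at 8.19 beside 7.38 to 7.93. The IL day 60 count of 3 moved to 1 without KA replicate 1, KA replicate 7 or sham replicate 5, and to 5 without KA replicate 4. Without slides 4 and 9 it was 1, with Fcgr2b the gene that remained (1.24, adjusted p = 0.00131). Over all 16646 probes, 365 were called higher at IL day 60 without these slides, beside 445 with them. In the leave-one-out fits the counts at IL day 7, IL day 28 and CL day 7 did not move.

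Slides carry at most 8 arrays each and 11 were used, so slide and group are partly mixed. Within the slides that held both KA and sham arrays of IL day 7 (3 slides with 5 KA and 3 sham arrays), the KA mean was higher on 3 of 3 slides for each of the 9 genes, with Trem2 differences of 1.21 to 2.96 and Fcer1g differences of 1.41 to 2.79. At IL day 28 (2 slides, each with 1 KA and 1 sham array) Trem2 differed by 2.00 to 3.16 and Fcgr2b by 1.71 to 2.93. The upper ends came from slide 1, with IL KA day 28 replicate 1, the highest of its group in 9 of the 9 genes. On these slides Mertk differed by -0.00175 to 0.44 and Itgb2 by -0.18 to 0.53, each higher on 1 of 2 slides. At IL day 60 the 4 slides held 5 KA and 4 sham arrays. Fcgr2b differed by 0.67 to 1.95, Trem2 by 0.38 to 1.52 and Axl by 0.10 to 1.97, each higher on 4 of 4 slides. The upper end of each range came from slide 9, which had the fewest detected probes. Its arrays of IL day 60 were KA replicate 7 and sham replicate 5, the sham array with Axl at 8.99. On the other slides Fcgr2b differed by 0.67 to 1.84, Trem2 by 0.38 to 1.19 and Axl by 0.10 to 0.68. At CL day 7 (2 slides, 3 KA and 3 sham arrays) the same differences were 0.99 to 1.62 for Fcgr2b and 0.85 to 2.35 for Trem2.

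Other genes of these pathways were examined in lists set with earlier results of these data known. Of 6 further Fc receptor genes tested, 3 rose at IL day 7, 3 at IL day 28, 2 at IL day 60 and 2 at CL day 7. Among all probes, 6.7%, 3.8%, 2.67% and 1.12% were called higher at these points. None of the 6 was called lower at these points. Fcgr4, an activating IgG receptor that uses FCER1G, had the largest difference of this list at IL day 7, with 2.82 ± 0.33 (adjusted p = 1.57e-09), and was also higher at IL day 60, by 1.66 ± 0.30 (adjusted p = 9.28e-05). Fcrls, a receptor-like gene known as a marker of mouse microglia, rose by 2.09 ± 0.28 and Fcgr1, the high-affinity IgG receptor, by 1.37 ± 0.20 at IL day 7. Fcgrt, the neonatal Fc receptor that recycles IgG, was at 0.26 ± 0.15 there and did not pass the test (adjusted p = 0.339). The median of the list at IL day 7 was 0.81, beside -0.05 over all probes.

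Of 15 ITAM and ITIM signalling genes tested (23 listed), 9 rose at IL day 7, 8 at IL day 28, 2 at IL day 60 and 3 at CL day 7, with 0 fallen. The shares of all probes called higher there were 6.7%, 3.8%, 2.67% and 1.12%. Ptpn6, the phosphatase SHP-1 recruited by ITIMs, rose by 2.13 ± 0.27 at IL day 7, Vav1 by 1.71 ± 0.22, Plcg2, a phospholipase of the TREM2 and Fc receptor pathways, by 1.22 ± 0.20, and Clec7a, the beta-glucan receptor, by 1.54 ± 0.27. Sirpa, the inhibitory receptor for CD47, was at -0.16 ± 0.15 (adjusted p = 0.62). The list's median at IL day 7 was 0.65.

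Of 9 TAM ligands and further engulfment genes, 4 rose at IL day 7, 1 at IL day 28, 1 at IL day 60 and 2 at CL day 7. This compares with 6.7%, 3.8%, 2.67% and 1.12% of all probes, and a count of 1 gene shows little about the list. Pros1, the bridging protein S, was called at all 4 of these points, with 1.40 ± 0.19, 0.88 ± 0.17, 0.78 ± 0.17 and 0.78 ± 0.19. Lgals3, galectin-3, rose by 2.26 ± 0.37, Stab1, a phosphatidylserine receptor, by 1.07 ± 0.17 and Megf10, an engulfment receptor of astrocytes, by 0.56 ± 0.14 at IL day 7. Gas6, the other bridging ligand, was at 0.33 ± 0.16 (adjusted p = 0.211) and Tyro3, the TAM receptor of neurons, at -0.45 ± 0.21 (adjusted p = 0.206). The list's median at IL day 7 was 0.33.

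Of 12 integrin partners, ligands and activators, 7 rose at IL day 7, 4 at IL day 28, 1 at IL day 60 and 1 at CL day 7. Beside these counts, 6.7%, 3.8%, 2.67% and 1.12% of all probes were called higher, and a count of 1 gene shows little about the list. Fermt3, the kindlin of blood cells that activates integrins, rose by 1.19 ± 0.17 at IL day 7, Itgb5, an integrin beta chain, by 1.41 ± 0.23, Skap2, an adaptor of integrin signalling, by 0.82 ± 0.14 and Vcam1, an integrin ligand, by 1.13 ± 0.20. Itgb1 was at 0.41 ± 0.15 (adjusted p = 0.0563). The list's median there was 0.67. A list set for TREM2 ligands and lipid response held Apoe, Clu, Lpl, Spp1, Cst7, Clec7a, Gpnmb, Ctsb, Ctsd and Lgals3. Its counts are thus not counts of ligands alone. Of 9 of these genes tested, 8 rose at IL day 7, 6 at IL day 28, 2 at IL day 60 and 2 at CL day 7. At IL day 60, 1 gene was called lower, beside 1.2% of all probes. It was Lpl, which encodes lipoprotein lipase, at -1.01 ± 0.26 (adjusted p = 0.0104). This list's median at IL day 7 was 1.19. Gpnmb, a lysosomal glycoprotein of phagocytes, was higher by 3.55 ± 0.42 at IL day 7 and by 3.19 ± 0.38 at IL day 60. Cst7, a cystatin, was higher by 2.60 ± 0.35 at IL day 7 and 2.83 ± 0.32 at IL day 28. None of the 5 lists had a called gene on the CL side after day 7. Lgals3 and Clec7a are each in 2 lists.

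**Figure D4:**
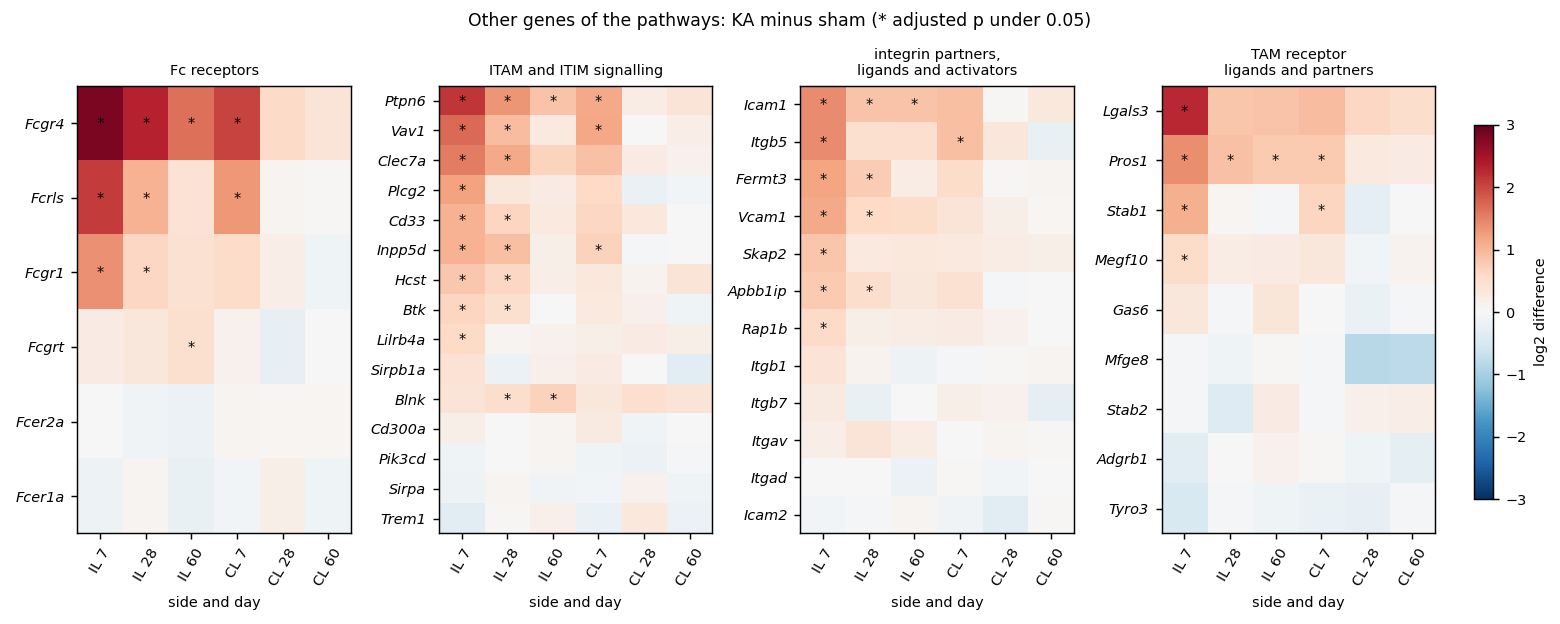
KA minus sham log2 difference (colour, red higher in KA) of the tested genes of 4 pathway lists, by side and day, with an asterisk where the adjusted p is under 0.05. Fcgr4, Ptpn6 and Pros1 are marked at all 3 days on the injected side, and no gene is marked in the last 2 columns (CL days 28 and 60).

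Markers of cell types were set beside these results. Their counts stand beside 6.7%, 3.8% and 2.67% of all probes called higher at IL days 7, 28 and 60, and 1.12% at CL day 7. Of 8 microglia markers tested, 7 rose at IL day 7, 4 at IL day 28, 0 at IL day 60 and 3 at CL day 7. Their mean level was 7.63 to 9.16 on the KA arrays and 7.23 to 7.56 on the sham arrays at IL day 7, and 7.38 to 8.19 against 7.25 to 7.56 at IL day 60. Of 5 astrocyte markers, 4, 3 and 2 rose on the IL side at days 7, 28 and 60 and 1 at CL day 7, with mean levels of 9.80 to 11.18 against 9.54 to 9.99 at IL day 7. None of the tested markers of monocytes (2), perivascular macrophages (4), neutrophils (5), natural killer and T cells (4), B cells (1), dendritic cells (2) or mast cells (1) passed the test with limma in any of the 6 KA against sham comparisons, and 10 of these 114 tests had an unadjusted p under 0.05. The monocyte gene Ccr2 was detected on 1 of 80 arrays; Ly6c2 and the neutrophil gene Ly6g have no annotated probe. Neutrophil markers averaged 5.55 to 7.75 on the KA arrays and 5.44 to 5.77 on the sham arrays at IL day 7. The 2 highest arrays, IL KA day 7 replicate 4 at 7.75 and CL KA day 7 replicate 5 at 7.76, came from the same animal, whose Fcgr3 values were 9.43 and 9.04. The microglia markers of these arrays averaged 8.03 and 7.17. On the CL array Fcgr3 was the highest of its group while the microglia markers were the lowest, below the CL sham arrays at 7.23 to 7.56. The part that these cell types have in the members' differences was not tested.

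Hippocampal neuron markers averaged 10.93 to 11.35 in KA and 11.09 to 11.21 in sham at IL day 7, and 0 of 4 passed there. At IL day 28, 1 of the 4 was called higher, beside 3.8% of all probes, and their median difference was 0.75. An IL sham day 28 array (replicate 5) had neuron markers at 8.70, beside 11.11 to 11.23 in the other 4; the count of 5 genes at IL day 28 was the same without it. CL KA day 28 replicate 4 and CL KA day 60 replicate 3 had low neuron markers (10.18 and 10.30) and low oligodendrocyte markers (9.48 and 9.65). Both lay on slide 4, and IL sham day 28 replicate 5 lay on slide 9. These slides had the fewest detected probes, with means of 56.8% and 51.37%. Whether slide or tissue set these levels was not tested. Each of the CL arrays was the highest of its group for several members. The CL KA day 28 array was highest for Fcer1g (10.10), Axl (10.71) and Mertk (8.68). The CL KA day 60 array was highest for 5 of the 9 genes, Trem2 (8.98), Fcer1g (9.63), Axl (10.49), Mertk (8.54) and Itgb2 (6.00).

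Across the 12 group means, Tyrobp, Trem2, Fcer1g, Fcgr3 and Fcgr2b correlated with one another at Pearson r of 0.972 to 0.998, as a description of 12 points that share their arrays. Axl correlated with them at 0.861 to 0.916, Mertk at 0.756 to 0.838, and Itgb2 at 0.32 to 0.416. Among genes outside the members, the closest to Tyrobp were Ccl4 (0.995), a chemokine, and C1qa (0.994), a subunit of complement C1q, and the same genes were closest to Trem2 (both 0.993). The closest to Fcer1g were Ly86 (0.995) and Cd84 (0.994), to Fcgr3 Ly86 (0.991) and Aif1 (0.988), and to Fcgr2b Kcne1l (0.992) and Dhrs1 (0.991). For Axl they were Fgd2 (0.983) and Ehd4 (0.982), for Mertk H2ac15 (0.963) and Cdc20 (0.959), for Itgam Ncf1 (0.905) and Epsti1 (0.896), and for Itgb2 Mx1 (0.873) and Fbxo8 (0.847). Itgam was detected on 8 and Itgb2 on 10 of the 80 arrays, so their correlations rest largely on values near background.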

How the data were processed

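Hippocampus tissue of 40 mice was measured on 80 arrays (1 IL and 1 CL array each). Groups were taken from the labels; the series' design text lists the sham day 60 animals as KA, and the sample labels, which say sham, were used. Animals were told apart by the animal label. Per the submitters' processing notes, BeadStudio, GenomeStudio and Partek were used; how the log2 values were normalised is not stated in the labels. The deposited log2 values have nearly equal quantiles on all arrays (largest difference 0.0112) and rank probes as the array's own intensities do on 80 of 80 arrays. The deposited table of bead intensities and detection p-values, per the file headers, was used for the detection filter and for alternatives. Of its 25697 lines, 4453 were not used because their cells do not line up with the header, and 1 detection column displaced by 1 line was moved back. Median intensity per array was 17.3 to 70.05, and 46.78% to 66.86% of probes were detected per array, fewest on slides 4 and 9. Precision is limited by how many arrays a group holds.

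Probes detected at p under 0.05 on at least 4 arrays were kept (16646 of 21244; 19889 probes had 1 gene symbol and 1355 none, from the platform annotation). A limma fit (version 3.58.1, R 4.3.3) over 12 group means used the animal as a random block (consensus correlation 0.0759), with Benjamini-Hochberg adjustment over all kept probes. In data simulated for the IL day 7 comparison with 16646 probes, 92.1% of 2-fold and 65.2% of 1.5-fold changes were recovered; of 1.5-fold changes simulated for IL days 28 and 60, 60.3% and 61.3% were. For a gene with several kept probes the one with the highest mean leads. Named genes are the members, up to 4 genes of each list with the lowest adjusted p at IL day 7 and at least 1 that did not pass, and the 2 genes closest to each member over group means; the markers are given by counts. The members and lists were chosen with earlier results of these data known. Alternatives were the normalisation (neqc, no background correction, median scaling), the detection filter, 1 probe per gene, the blocks (none, replicate number, slide), the contrast's own groups alone, and leaving out each array. Leaving out 1 animal, and leaving out slides 4 and 9, were chosen after seeing the data.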

Additional observations from a re-analysis of the deposited data

Results flagged for a closer look

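Of 108 combinations of a gene and a group examined, 18 held an array far from the others of its group by Dixon's criterion, where chance gives about 1 in 20 groups; the genes share arrays, so these are not independent. IL KA day 7 replicate 8 was the low array for Tyrobp (7.95), Trem2 (8.63), Fcer1g (9.74), Fcgr3 (7.61), Fcgr2b (6.76) and Axl (9.88). IL sham day 7 replicate 4 was low for Trem2 (7.70), Fcgr3 (6.74) and Fcgr2b (6.30). Tyrobp was low on IL sham day 28 replicate 3 (6.99) and on CL KA day 28 replicate 8 (6.82). High arrays were CL KA day 60 replicate 3 for Trem2 (8.98), IL KA day 60 replicate 7 for Fcgr3 (8.78) and IL KA day 28 replicate 1 for Fcgr2b (9.12). Axl was low on IL sham day 60 replicate 5 (8.99) and CL sham day 60 replicate 3 (9.58). Itgam was low on IL KA day 60 replicate 6 (5.20) and high on IL sham day 60 replicate 5 (5.99), in both cases not well above background.

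The KA effect differed by a direct test between sides at day 28 for Trem2 (1.66, IL minus CL) and Fcgr2b (1.54). On the IL side it differed between days 60 and 7 for Fcer1g (-1.66), Trem2 (-1.54), Tyrobp (-1.42), Fcgr3 (-1.25), Mertk (-0.865) and Itgam (-0.75, with 3 of the 4 groups at background).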

How the results depend on the processing

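The counts of member genes called at IL day 7 (8) and IL day 28 (5) stayed within 1.5 times under every alternative run. The IL day 60 count of 3 became 5 with slide as a block, 6 with 1 animal left out on both sides and 1 without slides 4 and 9. Over all 16646 probes, 445 were called higher there in the main fit, and 642, 504 and 365 in these fits. Leaving out each array in turn gave 1 to 5, and 0 to 1 genes lower, with 277 to 509 of all probes called higher. The CL day 7 count of 5 became 2 with only the groups of the contrast, where Fcer1g (adjusted p = 0.0505), Trem2 (0.0874) and Tyrobp (0.0932) missed the threshold. Over all probes, 25 were called higher in that fit, beside 187 in the main fit. Between sides, the day 28 count of 2 became 4 with the animal left out and 0 without slides 4 and 9, the day 60 count of 0 became 1 with the animal left out, and leaving out single arrays gave 0 to 1 at days 7 and 60. Between days 28 and 7 on the IL side the count of 0 became 1 with neqc and 3 with the animal left out (0 to 2 over single arrays); on the CL side it became 6 with the animal left out (0 to 1). Between days 60 and 7 it ranged between 2 and 7 over single arrays on the IL side, and on the CL side 0 became 5 with the animal left out (0 to 3). With the animal left out, calls over all probes rose as well. Between days 28 and 7 there were 74 higher and 239 lower on the IL side and 13 and 119 on the CL side. Between days 60 and 7 on the CL side there were 0 and 67. Leaving out the day 7 animal did not change the KA minus sham differences at days 28 and 60, only the spread shared by all groups. The cause of the other changes was not tested. Differences that changed sign were all uncalled: Itgam at IL day 28 (0.0511 without slides 4 and 9, -0.1249 to 0.0872 over single arrays); Itgb2 at IL day 28 (-0.0598, median scaling) and CL day 28 (-0.7118 with no background correction, -0.0682 with median scaling, -0.0591 without slides 4 and 9, and -0.0872 to 0.1087 over single arrays); and at CL day 60 Mertk (-0.0719) and Itgb2 (-0.0605) without slides 4 and 9, Itgam (-0.0353 to 0.0568) and Itgb2 (-0.0431 to 0.0761) over single arrays.

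Same-numbered KA and sham arrays deviated together with correlations of -0.4706 to 0.3555. At CL day 7 they averaged 0.1649, against -0.0225 for other pairs, and in the other comparisons their means lay between -0.077 and 0.0609. The IL and CL arrays of the same animal, which are truly paired, gave -0.355 to 0.5752. The check therefore cannot tell whether the numbers pair the samples, and the labels name no such pairing. With the replicate block the IL day 28 count was 6, with Axl at 0.55 (adjusted p = 0.0467), and no other member call changed. Over all probes, 803 were called higher at IL day 28 in that fit, beside 633 in the main fit. Itgam and Itgb2 lie near background, which limits what their differences can show.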
